A study of Mus musculus with 23 samples.

Results

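A set of 10 genes that restrain signalling close to the T cell antigen receptor were followed: Cd5, Cd6, Ptpn6, Ptpn22, Ptpn2, Ubash3a, Ubash3b, Csk, Pag1 and Ptprs. They were taken by symbol from the deposited count table, in which these 10 genes are rows among 21900, and all 10 passed the filter on low counts. When the antigen receptor binds its ligand, the kinase Lck phosphorylates the receptor chains and the kinase Zap70, and a set of phosphatases, inhibitory kinases and surface receptors limits the strength of that signal. Csk phosphorylates the inhibitory tyrosine of Lck, Pag1 holds Csk at the membrane, and Ptpn22 binds Csk and removes activating phosphates from Lck and Zap70. Cd5 and Cd6 are related scavenger receptors that dampen receptor signals, and the surface level of CD5 is widely used as a readout of the signal strength a T cell has received.

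The study transferred ovalbumin-specific T cells into C57BL/6 mice and gave them antigen in different forms. The CD8 cells, OT-I, carry a transgenic receptor for an ovalbumin peptide on MHC class I, and the CD4 cells, OT-II, carry one for an ovalbumin peptide on MHC class II. At 1 day after transfer the recipients were given 1 ug of A8B1-OVA, an equimolar amount of free OVA, free OVA at a larger dose, or saline, and the cells were sorted at day 5 after transfer from spleen and lymph nodes. All 8 groups thus share the transfer, the recipient strain and the transgenic receptor of their cell type, and they differ in the injected agent. The sources used here do not say what A8B1 is, beyond a series title that speaks of targeting erythrocytes. Each library held RNA of 3 mice, and there were 3 libraries in a group but only 2, numbered 2 and 3, for OT-II cells from mice on higher-dose OVA. The type field of the CD4 samples reads OT-i, and they were assigned to OT-II from their titles and CD4 source. Nothing in the labels states whether the libraries of a group came from separate experiments, so the p-values measure the spread between pools.

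Total counts per library ran from 26584040 to 73503642. Cd8a, which encodes the CD8 alpha chain, lay at 786 to 1250 CPM (the count divided by the library total and scaled to a common size) in the OT-I libraries and at 1.21 to 7.46 CPM in the OT-II libraries, and Cd4 lay at 554 to 704 CPM in OT-II. In 5 libraries markers of other cells (B cell or myeloid genes, or Cd4 in an OT-I library) stood above those of their group: OT-I saline replicate 1, OT-I molar-equivalent OVA replicate 2, OT-I higher-dose OVA replicate 1, OT-II saline replicate 1 and OT-II molar-equivalent OVA replicate 3. OT-I molar-equivalent OVA replicate 2 had a summed level of 14 B cell genes of 2880 CPM, against 162 and 637 CPM in the other libraries of its group. OT-I higher-dose OVA replicate 1 held Cd4 at 164 CPM. In such bulk libraries, fewer cells of a type and less RNA per cell cannot be told apart.

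Per kilobase of the principal transcript, the brakes spanned a wide range of mean levels in OT-I cells given saline. Ptpn6, which encodes the phosphatase SHP-1, was the highest at 419 CPM per kb, followed by Cd6 at 300 and Cd5 at 184 CPM per kb. Ptpn22 lay at 155, Ptpn2 at 75.2, Csk at 69.8 and Ubash3a at 28.3 CPM per kb. The 3 lowest were Ubash3b at 9.63, Pag1 at 6.37 and Ptprs at 2.78 CPM per kb. Levels in the rest of the text are CPM scaled by TMM factors (normalisation that aligns libraries on their common genes), and they compare a gene with itself.

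**Figure D1:**
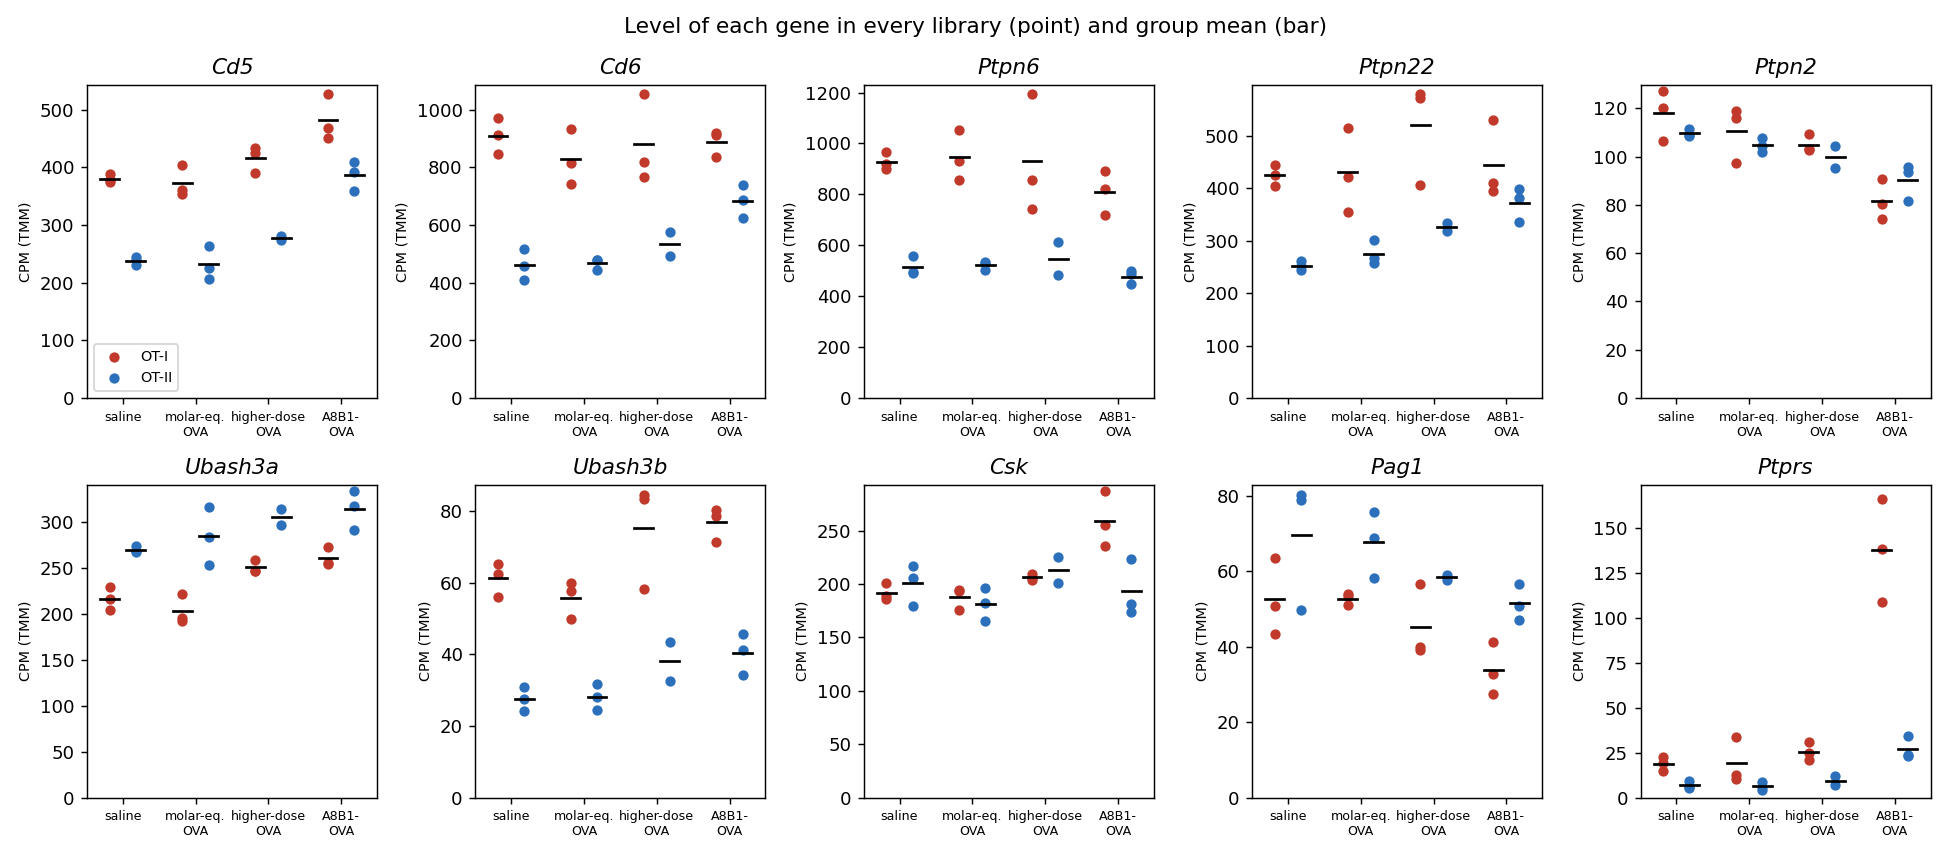
Level of each of the 10 brake genes in all 23 libraries, in TMM-scaled CPM, by group; points are libraries and bars are group means. Ptprs in OT-I cells given A8B1-OVA sits between 109 and 166 CPM, above every other library, and Ptpn6 separates OT-I from OT-II libraries in every treatment.

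Ptprs moved most after A8B1-OVA in both cell types. It encodes a receptor-type phosphatase of the LAR family that binds heparan and chondroitin sulphate proteoglycans, best known from neurons and from plasmacytoid dendritic cells. Ptprs lies on the minus strand of chromosome 17 (GRCm38, chr17:56412426-56476483). In OT-I cells given A8B1-OVA the 3 libraries held 139, 166 and 109 CPM, against 22.9, 19.2 and 15.03 CPM after saline. With molar-equivalent OVA the OT-I libraries held 12.6, 34.0 and 10.7 CPM, and with higher-dose OVA 21.1, 31.1 and 24.98 CPM. No OT-I library of another treatment reached the lowest A8B1-OVA library. The log2 fold change was 2.84 ± 0.37 (SE) against saline, a 7.18-fold rise with adjusted p = 0.000436, and 2.39 ± 0.37 against higher-dose OVA (adjusted p = 0.00905).

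In OT-II cells Ptprs lay at 23.99, 34.7 and 23.3 CPM after A8B1-OVA and at 9.34, 5.23 and 6.08 CPM after saline. The OT-II libraries given molar-equivalent OVA held 4.53, 6.12 and 8.52 CPM, and those given higher-dose OVA 6.86 and 12.3 CPM. Again every A8B1-OVA library was above every other OT-II library. The rise against saline was 2.01 ± 0.31 on the log2 scale, or 4.02-fold (adjusted p = 0.00238), and against higher-dose OVA the difference of 1.52 ± 0.35 did not pass (adjusted p = 0.0609). Ordered by mean level, OT-I with A8B1-OVA was first at 138 ± 28.5 CPM (SD, n = 3), and OT-II with A8B1-OVA (27.3 ± 6.37 CPM) overlapped with OT-I given higher-dose OVA (25.7 ± 5.02 CPM). Each further neighbour in that order overlapped with the next.

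The promoter of Ptprs is shown because this gene changed most. Windows of 7 of the 10 genes were searched, taken from RefSeq's promoter table (GRCm38.p6). Ptpn2 was left out of the search, and no entry was used for Cd6 and Pag1. The 250 bases upstream of the more distal Ptprs start (chr17:56476481-56476730, minus strand) are printed with the E-box hexamer CACGTG in capitals:
Ptprs: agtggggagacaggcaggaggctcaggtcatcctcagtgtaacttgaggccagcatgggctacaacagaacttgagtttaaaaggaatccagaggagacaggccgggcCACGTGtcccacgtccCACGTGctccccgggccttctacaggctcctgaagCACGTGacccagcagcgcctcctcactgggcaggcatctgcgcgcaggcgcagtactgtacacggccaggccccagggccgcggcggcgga
CACGTG, which reads the same on both strands, occurs 3 times, with first bases at -142, -126 and -91 from the start. Of 32851 promoter windows of the same length, 6.0% hold at least 1 copy and 20, or 0.0609%, hold 3 or more. The window of a further Ptprs start, chr17:56462222-56462471, holds none. The motifs searched were chosen with results known, no binding was measured, and a match is a description of letters.

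Because Ptprs is also a gene of plasmacytoid dendritic cells, their markers were read beside it. Siglech, which defines those cells, lay at 0.313 to 0.631 CPM of the library total in OT-I cells given A8B1-OVA, within the 0.204 to 1.03 CPM of OT-I saline. The summed level of the 12 listed plasmacytoid markers was 235 to 259 CPM in OT-I A8B1-OVA libraries and 345 to 369 CPM in OT-I saline libraries, with 2 of the 12 at 0 in each A8B1-OVA library. In OT-II it was 233 to 248 against 281 to 306 CPM. Siglech was a small part of these sums, and which cells expressed the other listed genes was not tested. Siglech was highest in OT-I molar-equivalent OVA replicate 2, at 7.75 CPM, and this library also had the highest Ptprs of its group. Without it the Ptprs difference between A8B1-OVA and molar-equivalent OVA was 3.56 (adjusted p = 0.000141) in place of 2.85 ± 0.38 (adjusted p = 0.000603). The library highest in Siglech was also highest in Ptprs in the other OT-I groups, and in OT-II after saline and after A8B1-OVA. In OT-II after molar-equivalent or higher-dose OVA it was not. Whether such cells had a part in the Ptprs levels was not tested.

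**Figure D2:**
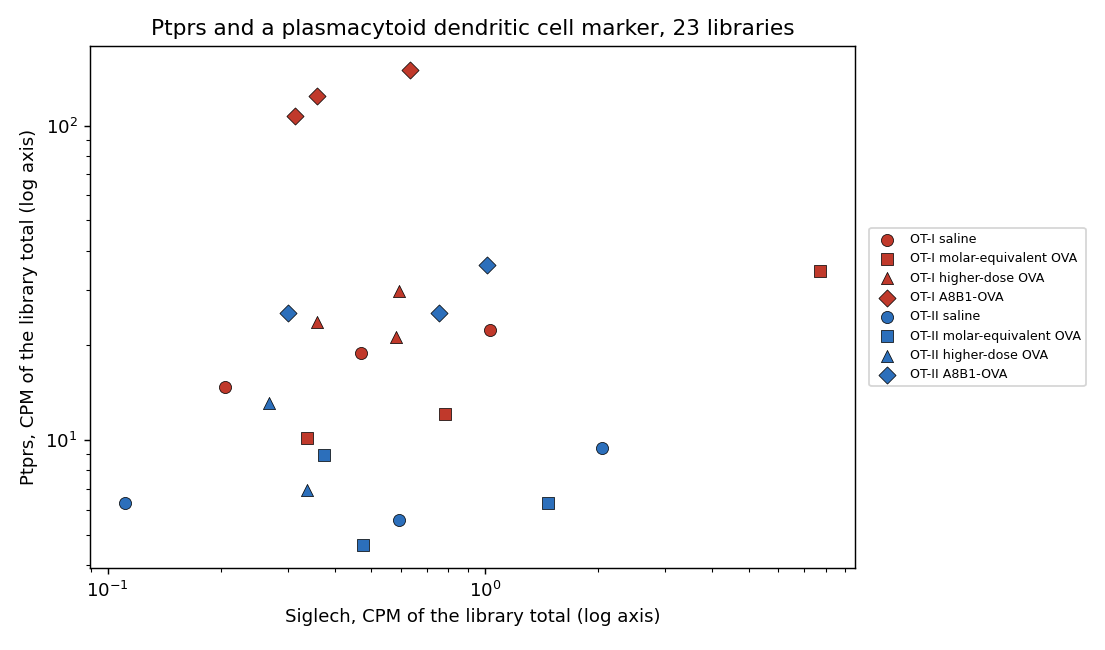
Ptprs against Siglech, a plasmacytoid dendritic cell marker, in the 23 libraries, both in CPM of the library total on log axes; colours are cell types and shapes are treatments. The OT-I A8B1-OVA libraries are highest for Ptprs at Siglech levels of 0.313 to 0.631 CPM, while the library with Siglech at 7.75 CPM is OT-I molar-equivalent OVA replicate 2.

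The scavenger receptors Cd5 and Cd6 rose in OT-II cells. They are neighbours on the minus strand of chromosome 19 (Cd5, chr19:10717116-10739002; Cd6, chr19:10789341-10830058), 50.3 kb apart. OT-II libraries held Cd5 at 391, 410 and 358 CPM after A8B1-OVA and at 245, 231 and 239 CPM after saline, so the groups did not overlap. With molar-equivalent OVA they held 206, 263 and 226 CPM, and with higher-dose OVA 281 and 274 CPM. The rise against saline was 0.71 ± 0.10, or 1.64-fold (adjusted p = 0.00133), and against molar-equivalent OVA 0.75 ± 0.10 (adjusted p = 0.00118). Against higher-dose OVA the Cd5 difference was 0.49 ± 0.11 with adjusted p = 0.0583.

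In OT-I cells Cd5 lay at 527, 468 and 451 CPM after A8B1-OVA and at 378, 389 and 374 CPM after saline. The difference of 0.33 ± 0.11 did not pass the threshold (adjusted p = 0.0683), although the groups did not overlap. It did so without A8B1-OVA replicate 3 (0.37, adjusted p = 0.0387) and in DESeq2 (adjusted p = 0.00664). Against molar-equivalent OVA, whose libraries held 361, 354 and 404 CPM, OT-I Cd5 was higher by 0.36 ± 0.11 (adjusted p = 0.0496), a call that ended when A8B1-OVA replicate 1 (adjusted p = 0.142) or 2 (0.0999) was left out, or molar-equivalent OVA replicate 1 (0.131) or 2 (0.102). By mean level, OT-II cells given A8B1-OVA (386 ± 26.1 CPM) overlapped with OT-I cells given saline (380 ± 7.80 CPM).

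Cd6, whose ligand is Alcam, held 740, 688 and 625 CPM in OT-II cells given A8B1-OVA and 518, 409 and 458 CPM in those given saline. The rise was 0.58 ± 0.10, or 1.5-fold (adjusted p = 0.00496), and against molar-equivalent OVA it was 0.56 ± 0.10 (adjusted p = 0.00712). Against higher-dose OVA, at 577 and 493 CPM, the OT-II Cd6 difference of 0.37 ± 0.11 did not pass (adjusted p = 0.166). In OT-I cells Cd6 lay at 912, 836 and 918 CPM after A8B1-OVA and at 910.3, 845 and 972 CPM after saline, and the ranges overlapped. That difference was -0.04 ± 0.14 (adjusted p = 0.877), and its sign was not stable when single libraries were left out.

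The Cd5 promoter is shown because Cd5 rose in OT-II cells, and the core of ETS family sites is marked in it. The 250 bases upstream (chr19:10738975-10739224, minus strand) are printed with AGGAAG in capitals:
Cd5: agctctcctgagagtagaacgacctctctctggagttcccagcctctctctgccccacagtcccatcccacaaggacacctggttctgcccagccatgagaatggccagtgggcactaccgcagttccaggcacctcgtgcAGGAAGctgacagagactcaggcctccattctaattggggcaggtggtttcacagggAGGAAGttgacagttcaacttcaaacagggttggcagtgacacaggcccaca
AGGAAG, searched on both strands, occurs at -109 and -52, and 6.25% of the 32851 windows hold 2 or more copies, while 29.5% hold at least 1. Also searched on both strands were the E-box (CACGTG), the CRE (TGACGTCA), the AP-1 site (TGANTCA), the EGR site (GCGTGGGCG) with its variant (GCGGGGGCG), the NR4A site (AAAGGTCA) and the NFAT core (GGAAA). None of these lies in the Cd5 window. A Csk window (at -198 and -182) and a Ubash3b window (at -169 and -165) also hold 2 copies of AGGAAG or its reverse complement. Among the 7 brakes searched, which leave out Ptpn2, the E-box was found in Ptprs only.

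The genes that act on Lck through Csk moved unequally in OT-I cells. Csk lay at 255, 287 and 236 CPM after A8B1-OVA and at 186, 201 and 189 CPM after saline, with no overlap. It was higher by 0.42 ± 0.11 (adjusted p = 0.0229). Pag1, the adaptor that anchors Csk, lay at 32.8, 27.5 and 41.3 CPM after A8B1-OVA and at 43.3, 63.5 and 50.9 CPM after saline. It fell by 0.64 on the log2 scale (SE 0.19, adjusted p = 0.045). The Csk call ended on leaving out A8B1-OVA replicate 2 (adjusted p = 0.108) or saline replicate 1 (0.0918), 2 (0.057) or 3 (0.0963), and the Pag1 call on leaving out A8B1-OVA replicate 1 (0.129) or 2 (0.209) or saline replicate 2 (0.181) or 3 (0.107).

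In OT-II cells Csk held 182, 223 and 174 CPM after A8B1-OVA and 217, 180 and 206 CPM after saline, and the difference of -0.04 ± 0.11 did not pass (adjusted p = 0.892). Pag1 held 56.7, 50.9 and 47.0 CPM against 49.8, 80.4 and 78.9 CPM, a difference of -0.43 ± 0.17 that did not pass (adjusted p = 0.18). Without OT-II saline replicate 1 the Pag1 difference was -0.62 and passed (adjusted p = 0.0172). That library had summed B cell markers of 859 CPM and myeloid markers of 933 CPM, above the 274 to 307 and 350 to 386 CPM of its group, and their part in the result was not tested.

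Ptpn22, the phosphatase partner of Csk, rose in OT-II cells, from 252, 260 and 243 CPM after saline to 399, 335 and 380 CPM after A8B1-OVA. The change was 0.57 ± 0.09, or 1.49-fold (adjusted p = 0.00354). Against molar-equivalent OVA, at 301, 257 and 268 CPM, it was 0.44 ± 0.09 (adjusted p = 0.0158), a call that ended on leaving out A8B1-OVA replicate 1 (adjusted p = 0.0683), molar-equivalent OVA replicate 2 (0.0646) or 3 (0.0565). With higher-dose OVA the OT-II libraries held 333 and 318 CPM of Ptpn22. The difference of A8B1-OVA from these, 0.21 ± 0.11, did not pass (adjusted p = 0.457). Higher-dose OVA itself lay 0.37 ± 0.11 above saline without overlap (edgeR, unadjusted p = 0.0043, adjusted p = 0.5). In OT-I cells Ptpn22 ranged from 395 to 529 CPM after A8B1-OVA and from 405 to 444 CPM after saline. That difference of 0.06 ± 0.17 did not pass (adjusted p = 0.871).

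The cytoplasmic phosphatases Ptpn2 and Ptpn6 did not rise in either cell type. Ptpn2, which acts on Lck and on cytokine receptor kinases, lay at 74.1, 80.3 and 90.6 CPM in OT-I cells given A8B1-OVA and at 120.1, 107 and 127 CPM after saline. It fell by 0.54 (SE 0.12, adjusted p = 0.0131), with no overlap between the groups. The call ended on leaving out A8B1-OVA replicate 1 (adjusted p = 0.0601) or 2 (0.0679) or saline replicate 1 (0.053) or 3 (0.0724). In OT-II cells the Ptpn2 difference was -0.27 ± 0.09 (adjusted p = 0.108), and DESeq2 called it (adjusted p = 0.0246). Ptpn6 differed by -0.21 ± 0.16 in OT-I (adjusted p = 0.453) and by -0.09 ± 0.10 in OT-II (adjusted p = 0.655). Reads of Ptpn6 and of Gm20531, an antisense gene that overlaps its exons by 195 bases, could not be told apart if counting ignored strand.

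Ubash3a and Ubash3b encode the paralogues STS-2 and STS-1, of which STS-1 is the more active phosphatase towards Zap70. Ubash3b lay at 45.5, 41.3 and 34.2 CPM in OT-II cells given A8B1-OVA and at 30.97, 24.1 and 27.5 CPM after saline, a difference of 0.57 ± 0.16 with adjusted p = 0.0529. It passed in DESeq2 (adjusted p = 0.0101) and without A8B1-OVA replicate 3 (0.67, adjusted p = 0.0361). In OT-I cells Ubash3b differed by 0.32 ± 0.15 (adjusted p = 0.186). Ubash3a differed from saline by 0.26 ± 0.11 in OT-I (adjusted p = 0.135, and 0.0315 in DESeq2, which called it) and by 0.23 ± 0.10 in OT-II (adjusted p = 0.185).

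Ubash3a was higher in OT-I cells given A8B1-OVA than in those given molar-equivalent OVA, at 254 to 273 against 192 to 221 CPM (0.35 ± 0.11, adjusted p = 0.0484). Leaving out any 1 of the 6 libraries compared ended that call, with adjusted p from 0.0525 to 0.0962. Per kilobase, the ratio of Ubash3a to Ubash3b ran from 2.43 to 3.52 in the 12 OT-I libraries (median 2.88) and from 5.32 to 10.8 in the 11 OT-II libraries (median 7.6), and the ranges did not overlap.

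**Figure D3:**
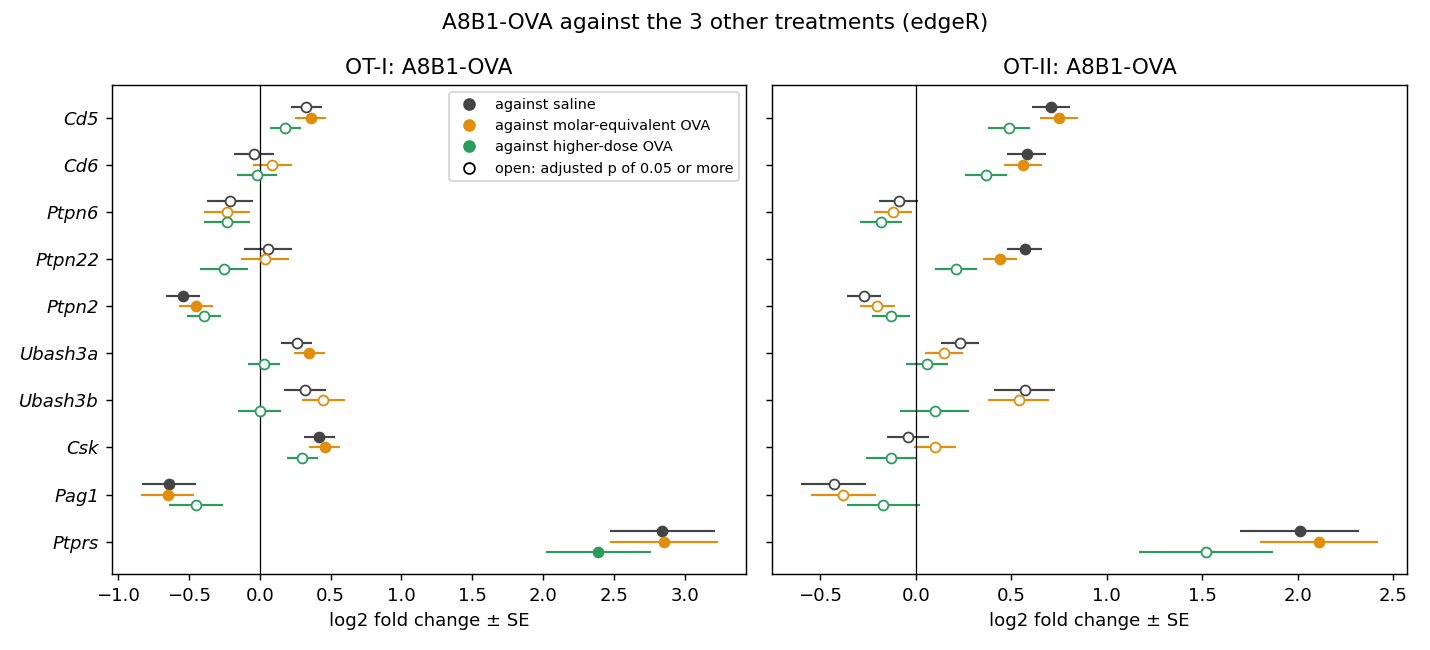
Log2 fold change of A8B1-OVA against saline, molar-equivalent OVA and higher-dose OVA for each brake gene, in OT-I and OT-II cells; points are estimates and bars are standard errors. Ptprs is farthest right in each comparison, at 2.84 in OT-I and 2.01 in OT-II against saline.

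Counted together, 4 of the 10 brakes passed in OT-I cells for A8B1-OVA against saline, 2 higher and 2 lower, where 11.5% of all 14080 genes tested passed, 7.07% higher and 4.43% lower. In OT-II cells 4 of 10 passed, all higher, against 7.28% of 14757 genes, 4.4% higher and 2.88% lower. The medians of the 10 log2 fold changes were 0.16 in OT-I and 0.40 in OT-II, beside -0.02 and -0.01 over all genes tested. Against molar-equivalent OVA, which shares the A8B1-OVA libraries, 6 of 10 passed in OT-I (background 10.6%) and 4 of 10 in OT-II (6.36%). Leaving out 1 library at a time moved the OT-I counts to between 1 and 5 in both comparisons. Against saline they were 2, 1 and 5 without A8B1-OVA replicates 1, 2 and 3, and 2, 2 and 1 without saline replicates 1, 2 and 3. Ptprs passed each time. In the same order these fits called 1070, 674 and 2569, and 901, 889 and 721, of all genes. They tested 14377 to 14439 genes, and the main fit called 1620 of 14080. Against higher-dose OVA 1 of 10, Ptprs, passed in OT-I (2.41%) and none in OT-II (1.34%). In OT-II edgeR gave 3 at an unadjusted p under 0.05, beside 1890 of 14757 genes, and DESeq2 called 3, beside 706. Each time these were Cd5, Cd6 and Ptprs. DESeq2 called 3 in OT-I also, Ptprs with Csk and Ptpn2, beside 1202 of 14080 genes.

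Free OVA moved none of the brakes past the threshold. Higher-dose OVA against saline gave 0 of 10 in OT-I (background 2.41%) and 0 of 10 in OT-II (0.0271%). At an unadjusted p under 0.05 edgeR gave 2 in OT-I, Ubash3a and Ubash3b, beside 1730 of all 14080 genes tested. In OT-II it gave 2, Ptpn22 and Ubash3b, beside 872 of 14757. DESeq2 called none of the 10, beside 712 of all genes in OT-I and 90 in OT-II. The differences ran from -0.19 to 0.45 in OT-I and from -0.26 to 0.48 in OT-II, with Ptprs at the upper end of both (0.45 ± 0.35 and 0.48 ± 0.33). Molar-equivalent OVA against saline gave 0 of 10 in both cell types by edgeR, where 0% of all genes passed its threshold. At an unadjusted p under 0.05 edgeR also gave 0, beside 266 of all genes in OT-I and 577 in OT-II. DESeq2 called 0 too, beside 1 gene in OT-I and 22 in OT-II.

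Most brakes also differed between the cell types in mice given saline. There, 7 of 10 differed between OT-I and OT-II, 6 higher and 1 lower in OT-I, against 15.5% of the 15235 genes tested in a fit over both (8.36% higher and 7.11% lower). Higher in OT-I were Ptprs (1.47 ± 0.36, adjusted p = 0.0077), Ubash3b (1.15 ± 0.16, adjusted p = 2.46e-05), Cd6 (0.98 ± 0.12, adjusted p = 1.06e-05), Ptpn6 (0.85 ± 0.14, adjusted p = 0.000194), Ptpn22 (0.75 ± 0.15, adjusted p = 0.000958) and Cd5 (0.67 ± 0.10, adjusted p = 4.9e-05). Ubash3a was lower in OT-I by 0.32 (SE 0.09, adjusted p = 0.0226), a call lost without OT-I saline replicate 2 (0.0719) or OT-II saline replicate 2 (0.0763) or 3 (0.0593). For Ptpn6 the OT-I saline libraries held 967, 901 and 918 CPM and the OT-II ones 558, 490.4 and 497 CPM.

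After A8B1-OVA, 8 of 10 differed between the cell types, 6 higher and 2 lower in OT-I (background 20.6%, with 12.2% higher and 8.34% lower). Ptprs was higher in OT-I by 2.34 ± 0.37 (adjusted p = 0.000144), Ubash3b by 0.93 ± 0.16 (adjusted p = 0.000288) and Ptpn6 by 0.76 ± 0.14 (adjusted p = 0.000604). Smaller differences passed for Csk (0.43 ± 0.11, adjusted p = 0.00869), Cd6 (0.38 ± 0.12, adjusted p = 0.0341) and Cd5 (0.32 ± 0.10, adjusted p = 0.0245), and Pag1 (-0.60 ± 0.19, adjusted p = 0.0279) and Ubash3a (-0.27 ± 0.09, adjusted p = 0.0454) were lower in OT-I. The Ptpn22 difference of 0.26 ± 0.14 did not pass (adjusted p = 0.222). Single libraries ended several of these calls: Csk without OT-I replicate 2 (0.0661) or OT-II replicate 3 (0.0645); Cd5 without OT-I replicate 1 (0.133) or 2 (0.0569) or OT-II replicate 1 (0.0625) or 3 (0.14). Cd6 was lost without OT-I replicate 1 (0.0878) or 3 (0.0677) or OT-II replicate 2 (0.0643) or 3 (0.153), Pag1 without OT-I replicate 1 (0.0721) or 2 (0.14) or OT-II replicate 1 (0.107), and Ubash3a without OT-I replicate 1 (0.105) or 2 (0.128) or OT-II replicate 2 (0.088) or 3 (0.15).

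**Figure D4:**
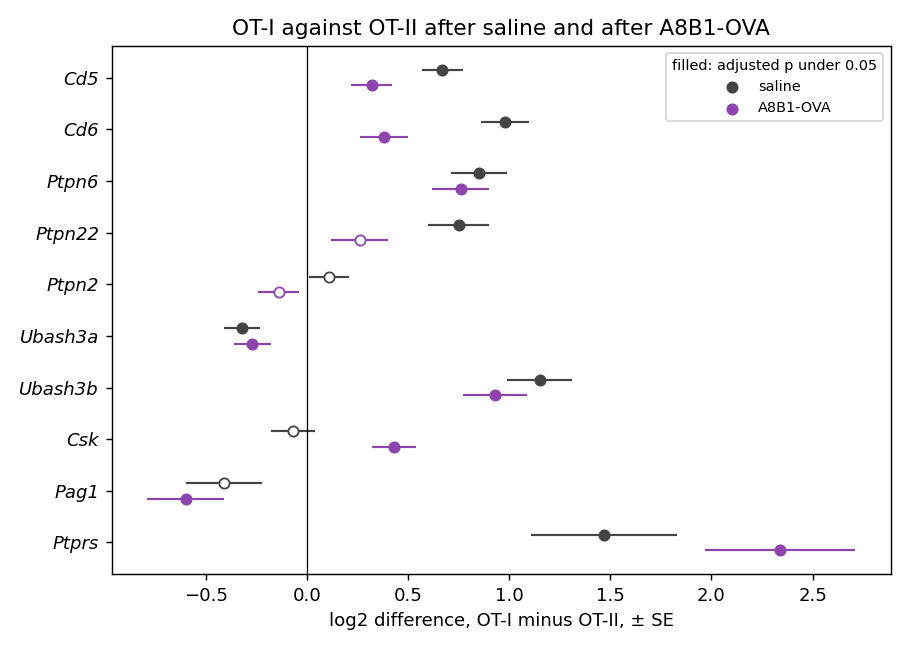
Log2 difference of OT-I over OT-II for each brake gene in saline and after A8B1-OVA, with standard errors, from the fit over all 23 libraries. The Ptprs difference is 1.47 in saline and 2.34 after A8B1-OVA, while those of Cd5 and Cd6 are 0.67 and 0.98 in saline and 0.32 and 0.38 after A8B1-OVA.

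Whether the response to A8B1-OVA itself differed between the cell types was tested with an interaction term. None of the 10 passed (background 0.433%). At an unadjusted p under 0.05 edgeR gave 4, beside 1408 of 15235 genes tested. DESeq2 called Cd6 alone of the 10, beside 253 of all genes. The response of Cd6 was smaller in OT-I than in OT-II by 0.60 (SE 0.17, adjusted p = 0.181), that of Ptpn22 by 0.49 (SE 0.20, adjusted p = 0.428) and that of Cd5 by 0.36 (SE 0.14, adjusted p = 0.378). Csk responded more in OT-I by 0.49 ± 0.15 (adjusted p = 0.223), and Ptprs by 0.87 ± 0.50 (adjusted p = 0.662). The response to higher-dose OVA gave 0 of 10 (background 0.00656%). It also gave 0 at an unadjusted p under 0.05 in edgeR, beside 772 of 15235 genes, and in DESeq2, beside 73.

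The other parts of the receptor pathway were read from a pair of lists. Of 23 genes of the receptor complex, its kinases and adaptors, A8B1-OVA against saline gave 2 higher and 4 lower in OT-I (median -0.10), beside 7.07% higher and 4.43% lower over all genes tested, so the count of higher genes was near that share. In OT-II 2 were higher and 3 lower (median -0.01), beside 4.4% and 2.88%. The adaptors Trat1 and Grap2 fell in both cell types. Trat1, which associates with the receptor complex, went from 50.3 ± 3.99 to 25.7 ± 3.94 CPM in OT-I (adjusted p = 0.0172) and from 133 ± 6.16 to 83.9 ± 9.46 CPM in OT-II (adjusted p = 0.0064). Grap2 differed by -0.57 ± 0.14 (adjusted p = 0.0193) and -0.54 ± 0.13 (adjusted p = 0.0282). The kinases Tec and Txk fell in OT-I, by 0.79 and 0.76, and Zap70 (0.52) and the adaptor Sh2d2a (0.58) rose there. In OT-II the kinase Fyn (0.33, adjusted p = 0.0488) and Sh2d2a (0.42, adjusted p = 0.0458) rose and the adaptor Skap1 fell by 0.28 (adjusted p = 0.0471), while the Tec difference was -0.38 ± 0.11 (adjusted p = 0.0617). Leaving out any 1 of the 6 OT-II libraries compared cut the 5 calls to between 1 and 3. In those fits the calls over all genes fell from 1074 to between 578 and 1011. Trat1 passed each time, Skap1 never did, and Fyn and Sh2d2a passed without A8B1-OVA replicate 3 only. In OT-I the 6 calls became 2 to 7, with Tec and Txk passing each time. The counts were 5, 3 and 7 without A8B1-OVA replicates 1, 2 and 3, and 3, 3 and 2 without saline replicates 1, 2 and 3. Counts over all genes in these OT-I fits are given above, with those of the brakes.

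The other list held 25 genes near the receptor and is labelled other proximal brakes, or other brakes. This is a list name only, as not every gene on it restrains the signal. Of these 25, 6 were higher and 2 lower in OT-I (median 0.13). Over all genes tested 7.07% were higher and 4.43% lower, with a median of -0.02. In OT-II 2 were higher and 3 lower (median 0.06), beside 4.4%, 2.88% and a median of -0.01. Ptpn7, a phosphatase of MAP kinases, rose from 124 ± 5.52 to 290 ± 12 CPM in OT-I (1.21 ± 0.13, adjusted p = 0.000139) and from 177 ± 4.76 to 294 ± 18.9 CPM in OT-II (0.74 ± 0.09, adjusted p = 0.000894). Against higher-dose OVA the Ptpn7 difference did not pass, at 0.33 ± 0.13 in OT-I (adjusted p = 0.193) and 0.28 ± 0.11 in OT-II (adjusted p = 0.28), and higher-dose OVA itself raised Ptpn7 over saline in OT-I (0.89 ± 0.13, adjusted p = 0.00501). Sit1, an adaptor that binds SHP phosphatases, fell from 138 ± 13 to 81.3 ± 10.9 CPM in OT-I (adjusted p = 0.00782) and from 235 ± 25.4 to 118 ± 8.20 CPM in OT-II (adjusted p = 0.000291). Against higher-dose OVA Sit1 was lower, by 0.77 in OT-I (adjusted p = 0.0281) and by 0.74 in OT-II (adjusted p = 0.0179). Alcam, the ligand of CD6, rose in OT-I from 0.489 ± 0.151 to 8.31 ± 5.95 CPM (4.06 ± 0.77, adjusted p = 0.00488). Against higher-dose OVA the OT-I Alcam difference of 1.39 ± 0.68 did not pass (adjusted p = 0.294). Nor did Alcam pass in OT-II against saline (1.25 ± 0.81, adjusted p = 0.429). The adaptor Lax1 rose in OT-I (0.49) and OT-II (0.39), and Sla2 fell in both (by 0.50 and 0.44). Dok1 (0.68) and the ubiquitin ligase Cblb (0.66) rose in OT-I, and Ptpra fell in OT-II by 0.47. In OT-II the Cblb difference of 0.41 ± 0.13 did not pass (adjusted p = 0.0914). The lists were chosen with results of these data known. The OT-II counts of both lists shrank to 2 without the 5 libraries with raised markers, and the 8 called genes of this list in OT-I became 4. Calls over all genes went from 1074 to 729 in OT-II and from 1620 to 977 in OT-I. Leaving out single libraries gave 2 to 9 of these brakes in OT-I, with Ptpn7 and Alcam passing each time and Sit1 lost without A8B1-OVA replicate 2. In OT-II it gave 2 to 3, with Ptpn7 and Sit1 passing each time. Calls over all genes in these fits ran from 674 to 2569 in OT-I and from 578 to 1011 in OT-II.

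**Figure D5:**
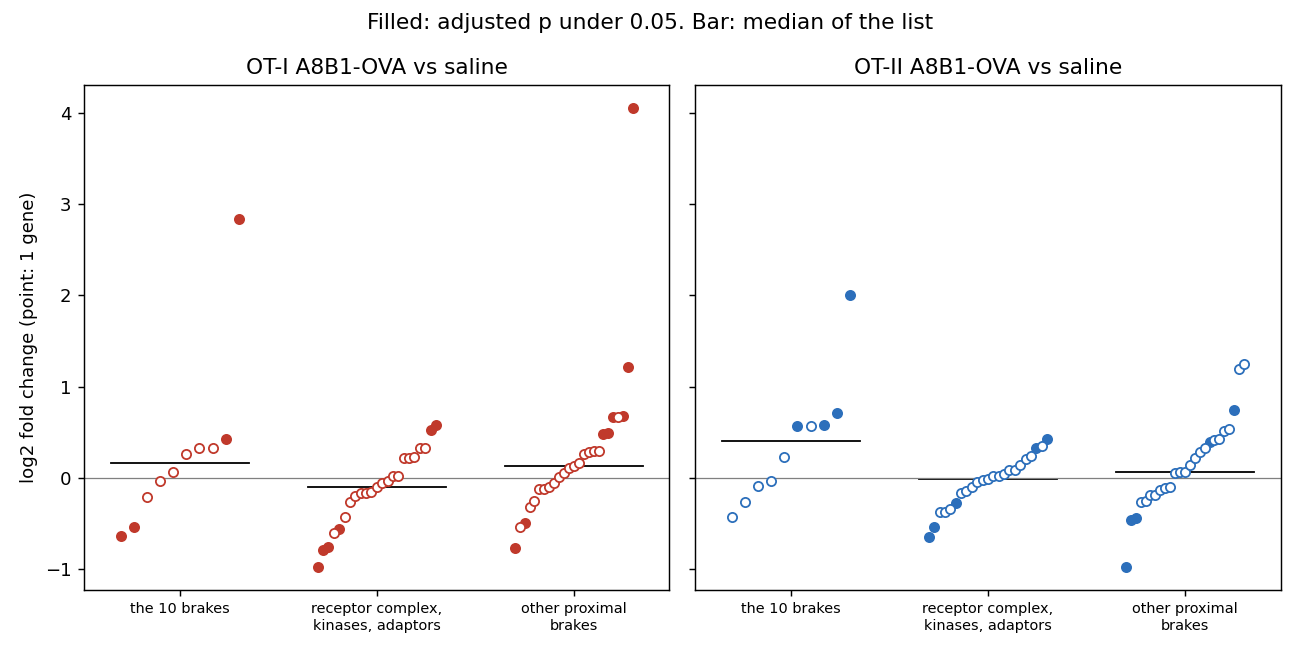
Log2 fold change of A8B1-OVA against saline in each cell type. Shown are the 10 brakes, the 25 genes of the list labelled other proximal brakes, and the 23 receptor complex, kinase and adaptor genes. Each point is a gene, and filled points passed the threshold. Ptprs and Alcam lie above the rest in OT-I.

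The genes whose levels tracked each brake most closely over the 23 libraries were found by Pearson's r of log2 CPM. They were sought among 8488 genes with a mean of at least 10 CPM. Each gene was first centred on its mean within OT-I and within OT-II, so r leaves out differences in mean level between the cell types. The values describe libraries that share treatment and depth. Cd5 was nearest to A630001G21Rik (r = 0.96), Ephx1 and Ybx3 (both 0.95), and Cd6 to Serp1 (0.91), B4galnt1 (0.89) and Snd1 (0.84). Ptprs tracked Tns1, Zfpm1 and Kdm2b (each 0.94). Ubash3b tracked Il2rb, a chain of the IL-2 receptor (0.90), the proliferation marker Mki67 (0.86) and Lpxn (0.85). Ptpn22 was nearest to the transcription factor Stat4 (0.93), Cdc14a (0.86) and Rab19 (0.83), and Ptpn2 to Rap1b (0.94), Actr6 and Snx2 (both 0.92). Pag1 was nearest to Zfp644 (0.93), Rbm39 (0.88) and Phf3 (0.87), Ptpn6 to Lgals3bp (0.87), Ubash3a to Trim59 (0.86) and Csk to Ubtd1 (0.86).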

How the data were processed

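Whole-number gene counts were used as deposited by the authors. They are estimated counts of a pseudoaligner: the submitters' processing notes name bcl2fastq, kallisto 0.46.1 and the build GRCm38, and the labels' protocols give polyA RNA amplified by SmartSeq. The sources used here give no further step. Because estimated counts share reads between similar transcripts by a model, genes with close copies are less certain; at most 3.35% of the 31-base words of a brake gene occur in another gene. Of 21900 genes, 21806 identifiers were found in GENCODE M21, which gave positions. A count of 3 corresponds to 0.0408 to 0.113 CPM, depending on the library.

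Genes were filtered with filterByExpr (minimum count 10, minimum total 15), scaled by TMM and tested with edgeR 4.0.16 (quasi-likelihood test, R 4.3.3, limma 3.58.1), 1 coefficient per group. OT-I (12 libraries) and OT-II (11) were fitted separately, and all 23 together for differences between cell types. P-values were adjusted by Benjamini-Hochberg over all genes tested, with a threshold of 0.05. Errors of fold changes are SE. DESeq2 1.42.0 was an alternative. The scripts were tested on simulated data. The genes, lists and motifs were chosen with earlier results of these data known. The text names all 10 brakes and up to 6 genes with the lowest adjusted p per list and cell type. Of the genes most like each brake it names 1 for Ptpn6, Ubash3a and Csk and 3 for the others. Replicate numbers were checked by correlating deviations from group means. They met the bar for pairing (every correlation over 0.1) between OT-I and OT-II libraries given saline, at 0.28, 0.13 and 0.13. Between the A8B1-OVA libraries of the cell types the correlations were 0.01, 0.16 and 0.25. No label says that a number marks shared mice.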

Additional observations from a re-analysis of the deposited data

How the results depend on the processing

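Of 181 alternatives for the counts of brakes passing, 155 stayed within 1.5 times the main count and 26 moved. Counts of 0 that stayed at 0 are among the 155, so this share says less about counts above 0. Of 567 alternatives for single genes, 6 changed sign, none of them of a called difference. Brackets below give the genes called out of all genes tested in the same fit. Fitting only the compared libraries gave 2 of 10 for OT-I A8B1-OVA against saline (1625 of 13485). Against molar-equivalent OVA it gave 1 (575 of 13361). Between cell types after A8B1-OVA it gave 4 (1933 of 13592), and for receptor-complex genes in OT-II 2 (726 of 13775). Without the 5 libraries with raised markers counts were 2 in OT-I against saline (977 of 14117) and 2 against molar-equivalent OVA (1348 of 14117). They were 1 in OT-II against higher-dose OVA (122 of 14604) and 5 between cell types after A8B1-OVA (2978 of 14983). In the lists they were 4 other brakes in OT-I (977 of 14117) and 2 in each list in OT-II (729 of 14604). With no filter on low counts they were 3 in OT-I against molar-equivalent OVA (1392 of 17929). In OT-II they were 2 receptor-complex genes and 3 other brakes (1006 of 17751). RLE size factors gave 2 receptor-complex genes in OT-II (1045 of 14757). DESeq2 gave 3 of 10 against higher-dose OVA in OT-I (1202 of 14080) and 3 in OT-II (706 of 14757). It gave 1 in the interaction (253 of 15235) and 8 receptor-complex genes in OT-II (1892 of 14757).

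Leaving out 1 library at a time gave ranges of brakes passing of 1 to 5 in OT-I against saline, 1 to 5 against molar-equivalent OVA, 1 to 2 against higher-dose OVA, 4 to 5 in OT-II against saline, 3 to 5 against molar-equivalent OVA, 6 to 8 between cell types in saline and 4 to 7 after A8B1-OVA. For receptor-complex genes the OT-I range was 2 to 7 and the OT-II range 1 to 3, and for other brakes these were 2 to 9 and 2 to 3. Over all genes these fits called 674 to 2569 in OT-I against saline (main 1620) and 575 to 2181 against molar-equivalent OVA (1496). Against higher-dose OVA they called 38 to 1487 in OT-I (339). In OT-II they called 578 to 1011 against saline (1074) and 441 to 968 against molar-equivalent OVA (939). Between cell types they called 1731 to 2067 in saline (2356) and 1823 to 3717 after A8B1-OVA (3135). The cause of these shifts was not tested. Where an OT-II higher-dose library was left out, the remaining 1 was assumed to vary like the other groups. Signs changed for OT-I Cd6 against saline (0.02 without A8B1-OVA replicate 2, 0.01 without saline replicate 3, range -0.09 to 0.02), OT-I Ptpn22 (-0.09 without A8B1-OVA replicate 3, range -0.09 to 0.15) and OT-II Csk (0.01 without the 5 libraries, 0.02 without A8B1-OVA replicate 3, 0.01 without saline replicate 1, range -0.16 to 0.02).

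The replicate block gave 3 of 10 in OT-I against molar-equivalent OVA (1392 of all 14080 genes tested). In OT-II it gave 2 receptor-complex genes and 3 other brakes (872 of 14757). Of 77 same-numbered pairs of libraries 8 had a correlation over 0.1, and 6 of these were among the 11 pairs of OT-I and OT-II libraries given 1 treatment. A replicate block within treatment, chosen after seeing the data, changed no call of a brake between the cell types. It gave 7 in saline (2514 of all 15235 genes tested), 8 after A8B1-OVA (3322) and 0 in both interactions (101 and 7).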
